A study of Homo sapiens with 6 samples.

Results

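The 37 genes of the human mitochondrial genome were followed in HK-2 cells after knockdown of INO80, the ATPase of a chromatin remodelling complex. They are all rows that the deposited gene table places on chromosome MT, 37 of 57905 genes, and they comprise 13 protein-coding genes, 2 ribosomal RNA (rRNA) genes and 22 transfer RNA (tRNA) genes. HK-2 is an immortalized line of human proximal tubular cells, so that all libraries come from 1 line. In 3 libraries the cells were transfected with a non-targeting control siRNA pool (genotype WT in the labels), and in 3 with a pool of siRNAs against INO80 (genotype knockdown). Both groups were grown in medium with fetal bovine serum and harvested 48 h after transfection with RNAiMax, and polyadenylated RNA was selected before sequencing. The labels number the libraries 1 to 3 in each group and do not say whether they came from separate cultures, so the p-values below measure only the spread between these libraries, which may be technical.

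The mitochondrial genome is a small circular DNA carried in many copies per cell. Its proteins are all core subunits of the respiratory chain and ATP synthase, which in the proximal tubule supply the energy for reabsorption, and its rRNAs and tRNAs serve the mitochondrial ribosome that translates them. Both strands are transcribed by a dedicated polymerase, POLRMT, with the factors TFAM and TFB2M into long RNAs that span many genes. RNase P and ELAC2 then cut out the tRNAs that lie between most of the other genes, and most of the released messengers receive a poly(A) tail. All other mitochondrial proteins are encoded in the nucleus.

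Between 16829273 and 20311588 reads were counted on genes in the control siRNA libraries and between 20678008 and 23784599 in the INO80 siRNA libraries, with the INO80 siRNA library the deeper of every pair. INO80 itself was at 46.2, 49.2 and 53.9 CPM (counts-per-million after TMM scaling) in control siRNA replicates 1, 2 and 3, and at 13.8, 12.03 and 14.1 CPM in INO80 siRNA replicates 1, 2 and 3. The groups did not overlap, and its log2 fold change was -1.90 (SE 0.0956, adjusted p = 0.000161, edgeR). Of 9 rows of proximal tubule markers, 2 passed the filter on low counts, GGT1 and SLC5A2, and LRP2, SLC22A6 and ANPEP had between 0 and 7 counts per library, so that several defining markers of the labelled cell type were at or near 0. Of 5 epithelial markers, 4 passed. The summed level of the fibroblast markers was 86.4, 47.7 and 47.7 CPM, here of the total count without TMM, in control siRNA replicates 1 to 3 and 106, 55.6 and 64.8 in INO80 siRNA replicates 1 to 3, so it stood higher in replicate 1 of both groups and higher under INO80 siRNA in all 3 pairs. Endothelial markers had 0 to 3 counts per library and leukocyte markers 8 to 18. Because these are bulk samples, fewer cells of a type and less RNA per cell cannot be told apart.

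The genes lie closely packed on the circle of 16569 bases, 28 on the plus strand and 9 on the minus strand. The minus strand genes are MT-ND6 and 8 tRNAs. All 37 have the same start and end in the deposited table and in the GENCODE annotation of hg38, from which the sequences below were read. The ends of the coding genes are shown because they tie the messengers to polyadenylation: 6 of the 13 stop 1 or 2 bases into their last codon, and the stop codon is completed by the A residues of the tail. The last 24 bases of these 6 genes follow, with the incomplete codon in capitals.
MT-ND1: ctccagcattccccctcaaaccTA
MT-ND2: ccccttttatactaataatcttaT
MT-CO3: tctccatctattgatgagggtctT
MT-ND3: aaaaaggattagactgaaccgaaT
MT-ND4: acatcattaccgggttttcctctT
MT-CYB: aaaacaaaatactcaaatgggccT

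As annotated, the other 7 coding genes end on a whole codon. The last base of MT-ATP6, 9207, is also the first of MT-CO3, so the annotated end need not be that of its messenger. MT-ND5 and MT-ATP6 are shown with the last codon in capitals.
MT-ND5: ctaaccctactcctaatcacaTAA
MT-ATP6: ctctacctgcacgacaacacaTAA

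Coding genes also overlap in a pair of bicistronic messengers, so that reads within the shared bases could belong to either gene. MT-ATP8 and MT-ATP6 share 46 bases, from 8527 to 8572, and MT-ND4L and MT-ND4 share 7 bases, from 10760 to 10766. In both shared stretches the capitals mark the start codon of the second gene.
MT-ATP8 and MT-ATP6: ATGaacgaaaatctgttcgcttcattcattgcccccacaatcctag
MT-ND4L and MT-ND4: ATGctaa

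Reads were found on all 15 coding and rRNA genes but on only 3 of the 22 tRNA genes in these 6 libraries. MT-TP, the proline tRNA (minus strand, 15956 to 16023), had 740, 611 and 712 counts in control siRNA replicates 1 to 3 and 802, 767 and 889 in INO80 siRNA replicates 1 to 3. MT-TC, the cysteine tRNA, had at most 5 counts in a library. MT-TF, the phenylalanine tRNA, had 3 counts in control siRNA replicate 1 and 0 in the other 5 libraries. The other 19 tRNA genes had 0 counts in every library, which by counting error alone leaves room for 3 counts in each. The 3 that were counted are shown for their place on the genome, with the last 3 bases in capitals.
MT-TP: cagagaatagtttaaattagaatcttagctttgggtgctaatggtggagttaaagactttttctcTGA
MT-TC: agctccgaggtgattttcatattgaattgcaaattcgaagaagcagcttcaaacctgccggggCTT
MT-TF: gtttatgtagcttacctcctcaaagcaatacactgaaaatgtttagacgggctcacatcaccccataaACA

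MT-TP and MT-TF border the control region, a stretch of 1122 bases without an annotated gene from which transcription starts. MT-TC borders a gap of 31 bases, which it shares with the uncounted MT-TN. Among the other uncounted tRNA genes, MT-TK borders a gap of 25 bases and no gap beside the remaining ones is longer than 12 bases. How reads that span neighbouring genes were counted is not given in the sources used here, and the part of the spacing in these counts was not tested. Whether the counting used the strand is not given either, so that reads from MT-ND6 or MT-TP and from the opposite strand could not be told apart.

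The first question was how much of each library the mitochondrial genes took. Within each replicate number their share of the counted reads was higher under INO80 siRNA, but the groups overlapped, and replicate 2 was low in both. The share was 2.36%, 1.62% and 2.18% in control siRNA replicates 1, 2 and 3. It was 2.63%, 1.77% and 2.56% in INO80 siRNA replicates 1, 2 and 3, so that INO80 siRNA replicate 2 lay below control siRNA replicates 1 and 3. The Wilson 95% interval of a share reached at most 0.00725 percentage points to either side, for counting error only. With 3 libraries per group, the mean share was 2.05% ± 0.388 (SD) in control siRNA against 2.32% ± 0.479 (SD) in INO80 siRNA, and the difference of 0.265 percentage points was smaller than either SD. The share under INO80 siRNA was 1.11, 1.09 and 1.17 times that of the control siRNA library of the same number. As this is a sum over genes chosen with earlier results of these data known, it was not tested. The difference between the group means depended on single libraries. It was 0.0468 points without control siRNA replicate 2, 0.108 without INO80 siRNA replicate 1 and 0.146 without INO80 siRNA replicate 3. It was 0.418 points without control siRNA replicate 1 and 0.540 without INO80 siRNA replicate 2. Leaving out 1 library breaks a pair, so these values do not bear on the differences within pairs. Those were 0.272, 0.149 and 0.373 points in replicates 1, 2 and 3.

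**Figure D1:**
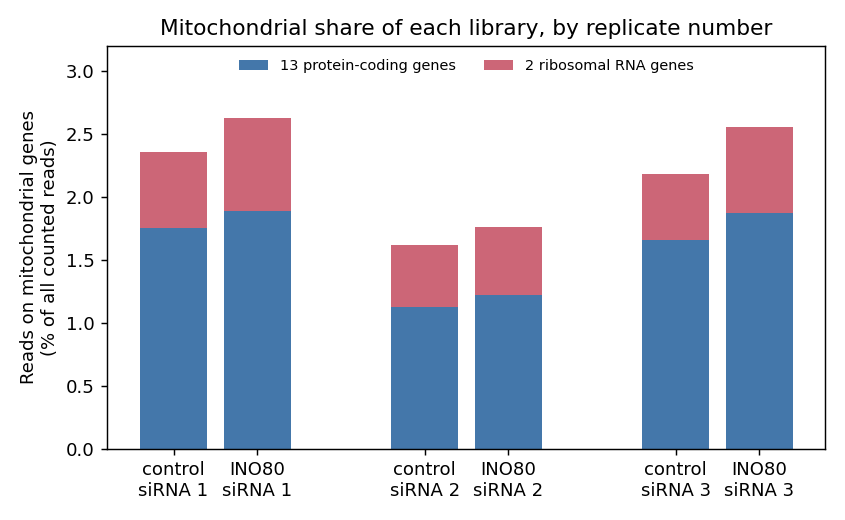
Reads on mitochondrial genes as a percent of all counted reads in each library, with the libraries side by side by replicate number and each bar split into the 13 protein-coding and the 2 rRNA genes (the few tRNA counts are not drawn). The INO80 siRNA bar is the higher in each pair, and both bars of replicate 2 lie below the other 4, at 1.62% and 1.77%.

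The rRNAs and the coding genes did not differ by equal factors. The share of the 2 rRNA genes was 0.603%, 0.486% and 0.520% in control siRNA replicates 1 to 3 and 0.742%, 0.545% and 0.679% in INO80 siRNA replicates 1 to 3, which is 1.23, 1.12 and 1.30 times the control within each number. The share of the 13 coding genes was 1.75%, 1.13% and 1.66% against 1.89%, 1.22% and 1.87%, or 1.08, 1.08 and 1.13 times. For every 1 count on coding genes there were 0.344, 0.430 and 0.314 counts on rRNA genes under control siRNA and 0.394, 0.447 and 0.362 under INO80 siRNA. This ratio does not depend on scaling between libraries, and it was higher under INO80 siRNA in 3 of 3 pairs while the groups overlapped.

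Per base of gene, mitochondrial RNAs were among those with the most reads in these libraries of polyadenylated RNA. On the scale of FPKM, which divides the count by gene length and library total, they made up 6 of the 10 and 11 of the 20 genes with the highest mean level over the 6 libraries, and 16 of the first 100. MT-RNR2 was second of all genes, at 3223 ± 377 FPKM under control siRNA and 3941 ± 630 FPKM under INO80 siRNA (SD, n = 3 each). MT-CO1, MT-CO2 and MT-CO3 came next among them, at 2389 ± 573, 2033 ± 224 and 1961 ± 448 FPKM under control siRNA. Within MT-CO1, MT-CO2 and MT-CO3, neighbours in this order differed by less than the larger of their SDs. These SDs are the spread between libraries and not the error of a difference between genes of the same library. Such differences were not tested. MT-ATP6 followed at 1727 ± 382 FPKM, MT-ND4 at 1497 ± 409 FPKM and MT-ND1 at 1439 ± 435 FPKM. MT-ND3 (1317 ± 148 FPKM), MT-ATP8 (1282 ± 347 FPKM), MT-ND4L (1072 ± 361 FPKM) and MT-ND2 (1032 ± 105 FPKM) came next and again lay within about an SD of each other in neighbouring order. MT-CYB was at 772 ± 187 FPKM and MT-TP at 545 ± 102 FPKM. The lowest levels of the tested genes were those of MT-ND5 (416 ± 104 FPKM), MT-RNR1 (355 ± 14.5 FPKM) and MT-ND6 (302 ± 72.1 FPKM), all under control siRNA with n = 3. The level of MT-RNR1, the small rRNA, was thus far below that of MT-RNR2, the large one, although the genes are neighbours separated by a single tRNA. As polyadenylated RNA was selected, these levels need not be those in the cell. The part of the selection in this difference was not tested.

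**Figure D2:**
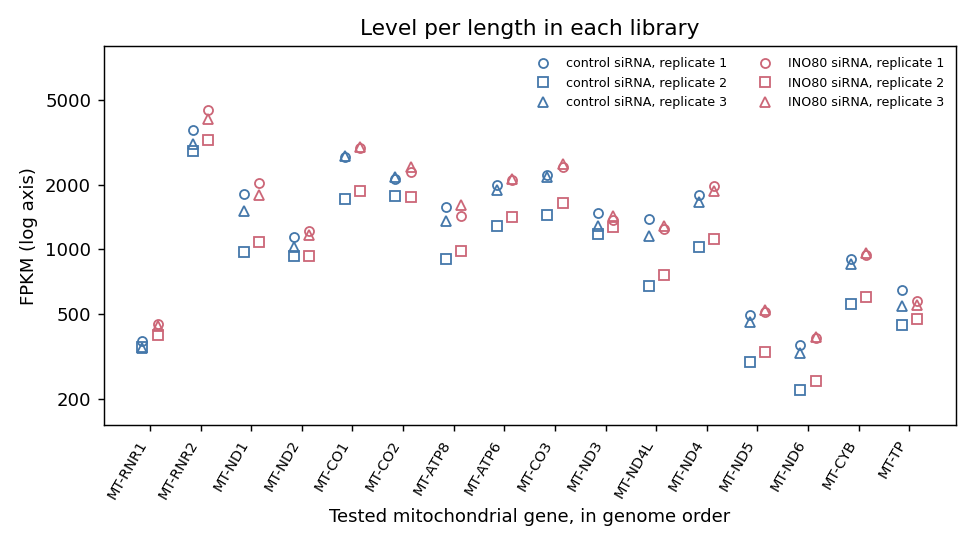
FPKM of the 16 tested mitochondrial genes in each of the 6 libraries on a log axis, in genome order, with circles, squares and triangles for replicates 1, 2 and 3. MT-RNR2 is the highest and MT-ND6 the lowest by the mean of the control siRNA libraries, and the squares of replicate 2 lie low for nearly all genes in both groups.

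Gene by gene, 10 of the 16 tested mitochondrial genes rose under INO80 siRNA when libraries of the same number were compared, and none fell, whereas no gene passed when the libraries were compared as unpaired groups. The 16 are the 13 coding genes, both rRNA genes and MT-TP, and the 21 other tRNA genes were too low to test. In the model with the treatment alone (edgeR, p adjusted over all 15343 tested genes, past the threshold at an adjusted p under 0.05), 0 of the 16 passed, with adjusted p between 0.146 and 0.985, against 1.75% of all tested genes in either direction and 0.261% in that of a higher level. In that model 1 gene, MT-RNR1, had an unadjusted p under 0.05, and DESeq2 called 0 as well. Because libraries of the same number deviated together, the replicate number was added as a block. With it 10 of the 16 passed, against 24.8% of all tested genes in either direction and 11.4% in the direction of a higher level. The median log2 fold change of the 16 genes was 0.12 in both models, against 0.01 for all tested genes, so the block moved the error and not the size. The standard error ranged from 0.0767 to 0.279 without the block and from 0.0279 to 0.0617 with it. The median ratio of the 2 errors was 6.14 for the mitochondrial genes and 1.34 for all tested genes.

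These calls have limits. With the block in DESeq2, 10 genes passed, the same ones as in edgeR, against 13.9% of all tested genes. However, limma on log2(FPKM + 0.1) with the block called 0 of the 16 and 0 of all tested genes. As it did not call INO80 either, that fit could not decide about the mitochondrial genes. In blocked fits without both libraries of replicate 1, 2 or 3, 14, 8 and 4 genes passed, against 25.4%, 17.0% and 14.6% of all tested genes. MT-RNR1, MT-RNR2, MT-ND1 and MT-CO3 passed in each of these fits. MT-ND5, MT-ATP6 and MT-CYB passed neither without replicate 2 nor without replicate 3. MT-CO1, MT-ND4 and MT-ND6 did not pass without replicate 3. In the model without a block, the median over the 16 genes was -0.05 without control siRNA replicate 2, under 0.01 without INO80 siRNA replicate 1 and 0.04 without INO80 siRNA replicate 3, against 0.27 without control siRNA replicate 1 and 0.31 without INO80 siRNA replicate 2. With both libraries of replicate 1, 2 or 3 left out and no block, which keeps the other pairs whole, this median was 0.14, 0.13 and 0.10. The summed fibroblast markers were also higher under INO80 siRNA in all 3 pairs, with 2 of the 3 tested markers, COL1A1 and DCN, past the threshold with the block (median log2 fold change of the 3 markers 0.32), and their part in the mitochondrial differences was not tested. The CPM of the groups did not overlap for 1 of the 16 genes, MT-RNR1, against 22.8% of all tested genes, and 10 of the 16 were higher in all 3 pairs, against 26.8%.

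**Figure D3:**
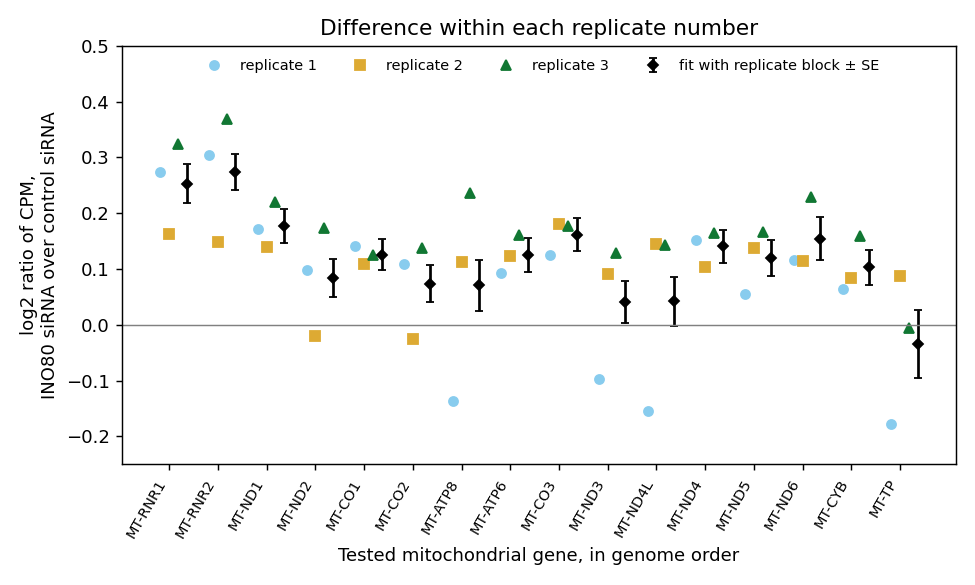
The log2 ratio of CPM between INO80 siRNA and control siRNA within each replicate number for the 16 tested genes in genome order, with the estimate and standard error (SE) of the fit with replicate block as black diamonds. All 3 points lie above 0 for 10 genes, the rRNA genes have the highest estimates, at 0.25 and 0.27, and MT-TP is the only gene with an estimate below 0.

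The rRNA genes had the highest estimates of the 16. MT-RNR2 encodes the 16S rRNA of the large subunit of the mitochondrial ribosome and lies on the plus strand from 1671 to 3229. It was at 5813, 4493 and 4838 CPM in control siRNA replicates 1, 2 and 3 and at 7183, 4981 and 6246 CPM in INO80 siRNA replicates 1, 2 and 3. Control siRNA replicate 1 lay above INO80 siRNA replicate 2, so the groups overlapped. Its log2 fold change with the block was 0.27 (SE 0.0328, adjusted p = 5.99e-07, edgeR), a fold of 1.21, and without the block the adjusted p was 0.367.

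MT-RNR1 encodes the 12S rRNA of the small subunit and lies from 648 to 1601. It was at 364, 331 and 326 CPM in control siRNA replicates 1, 2 and 3 and at 440, 371 and 408 CPM in INO80 siRNA replicates 1, 2 and 3, with every INO80 siRNA library above every control siRNA library. Its log2 fold change with the block was 0.25 (SE 0.0353, adjusted p = 5.79e-06, edgeR), and without the block it had the smallest adjusted p of the 16 genes, at 0.146. Without the filter on low counts, which changes the number of genes tested, both rRNA genes passed in the unblocked model.

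Complex I, the NADH dehydrogenase, has 7 of its subunits encoded here, of which 4 rose with the block. MT-ND1, which forms part of the membrane arm near the quinone site, lies from 3307 to 4262. It was at 1790, 920 and 1445 CPM in control siRNA replicates 1, 2 and 3 and at 2016, 1013 and 1682 CPM in INO80 siRNA replicates 1, 2 and 3. Replicate 2 was low in both groups and the difference was of like size in all 3 pairs. The log2 fold change with the block was 0.18 (SE 0.0302, adjusted p = 8.10e-05, edgeR).

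MT-ND4, a proton-pumping subunit (10760 to 12137), was at 2539, 1410 and 2273 CPM under control siRNA, against 2821, 1515 and 2549 CPM under INO80 siRNA. Its log2 fold change with the block was 0.14 (SE 0.0292, adjusted p = 0.000758, edgeR). MT-ND5, at the far end of the membrane arm (12337 to 14148), was at 915, 535 and 823 CPM against 951, 588 and 924 CPM. It had a log2 fold change with the block of 0.12 (adjusted p = 0.00691, edgeR). In both genes, replicate 2 of either group lay below the other 4 libraries.

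MT-ND6 is the only coding gene of the minus strand and lies from 14149 to 14673. It was at 192, 115 and 171 CPM under control siRNA, against 208, 124 and 201 CPM under INO80 siRNA, and rose by a log2 fold change of 0.15 with the block (SE 0.0382, adjusted p = 0.00368, edgeR). Its size was within the range of the plus strand coding genes.

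MT-ND2, MT-ND3 and MT-ND4L did not pass. MT-ND2 (4470 to 5511) was at 1218, 963 and 1061 CPM under control siRNA, against 1305, 950 and 1196 CPM under INO80 siRNA, lower in pair 2 and higher in the others (block log2 fold change 0.08, adjusted p = 0.0712, edgeR). MT-ND3 (10059 to 10404) was at 524, 407 and 443 CPM against 489, 433 and 485 CPM, lower in pair 1 (adjusted p = 0.471, edgeR with block). MT-ND4L, which opens the messenger it shares with MT-ND4 (10470 to 10766), was at 422, 200 and 339 CPM against 379, 221 and 375 CPM, again lower in pair 1 and higher in pairs 2 and 3 (adjusted p = 0.534, edgeR with block).

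Complex III has 1 mitochondrial subunit, cytochrome b, encoded by MT-CYB (14747 to 15887). It was at 1055, 632 and 969 CPM in control siRNA replicates 1, 2 and 3 and at 1104, 670 and 1082 CPM in INO80 siRNA replicates 1, 2 and 3. It was higher in each pair, with overlapping groups. Its log2 fold change with the block was 0.10 (SE 0.0314, adjusted p = 0.0170, edgeR). Like MT-ND5 and MT-ATP6, it did not pass in blocked fits without replicate 2 or without replicate 3.

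Of the 3 catalytic core subunits of complex IV, cytochrome c oxidase, MT-CO1 and MT-CO3 rose with the block. MT-CO1 (5904 to 7445), which holds the oxygen-reducing site, was at 4275, 2646 and 4186 CPM under control siRNA, against 4717, 2854 and 4564 CPM under INO80 siRNA. The log2 ratios of its pairs were 0.14, 0.11 and 0.12, among the most even of all members, and the blocked log2 fold change was 0.13 (SE 0.0279, adjusted p = 0.00143, edgeR). MT-CO3 (9207 to 9990) was at 1804, 1125 and 1707 CPM against 1969, 1275 and 1930 CPM, with a blocked log2 fold change of 0.16 (SE 0.0297, adjusted p = 0.000207, edgeR).

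MT-CO2 (7586 to 8269), which receives electrons from cytochrome c, was at 1503, 1206 and 1479 CPM under control siRNA, against 1621, 1185 and 1627 CPM under INO80 siRNA. It was lower in pair 2 and did not pass with the block (log2 fold change 0.07, adjusted p = 0.104, edgeR).

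The subunits of complex V, ATP synthase, share a messenger but only MT-ATP6 passed. MT-ATP6 (8527 to 9207), part of the proton channel, was at 1393, 872 and 1281 CPM in control siRNA replicates 1, 2 and 3 and at 1485, 950 and 1433 CPM in INO80 siRNA replicates 1, 2 and 3. It was higher in each pair, with a blocked log2 fold change of 0.13 (SE 0.0303, adjusted p = 0.00296, edgeR). MT-ATP8 (8366 to 8572) was at 336, 186 and 279 CPM against 306, 201 and 328 CPM, lower in pair 1 and higher in pairs 2 and 3 (log2 fold change 0.07, SE 0.0460, adjusted p = 0.288, edgeR with block). The difference between the genes was not tested.

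MT-TP was at 45.1, 29.9 and 36.8 CPM in control siRNA replicates 1, 2 and 3 and at 39.8, 31.7 and 36.6 CPM in INO80 siRNA replicates 1, 2 and 3. It is the only tested tRNA, and its groups overlapped, with a log2 fold change of -0.03 (SE 0.0617, adjusted p = 0.743, edgeR with block). The annotated end of a coding gene did not separate those that passed. Among the 6 genes whose stop codon is completed by the tail, 4 passed with the block and the median log2 fold change was 0.12. Among the 7 annotated with a whole last codon, 4 passed and the median was also 0.12. These 7 include MT-CO1, ending on AGA, MT-ND6, ending on AGG, and MT-ATP6, whose last base is shared with MT-CO3.

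Replicate 2 stood apart for the mitochondrial genes within each group. In control siRNA, the CPM of replicate 2 was between 0.525 (MT-ND4L) and 0.961 (MT-RNR1) times the mean of replicates 1 and 3, and in INO80 siRNA it was between 0.548 (MT-ND1) and 0.889 (MT-ND3) times. The level was lowest in replicate 2 in both groups for 15 of the 16 genes, MT-RNR1 being the exception, against 16.0% of all tested genes. The median SD of log2 CPM among control siRNA libraries was 0.38 for the mitochondrial genes and 0.13 for all tested genes, and among INO80 siRNA libraries it was 0.37 and 0.13.

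**Figure D4:**
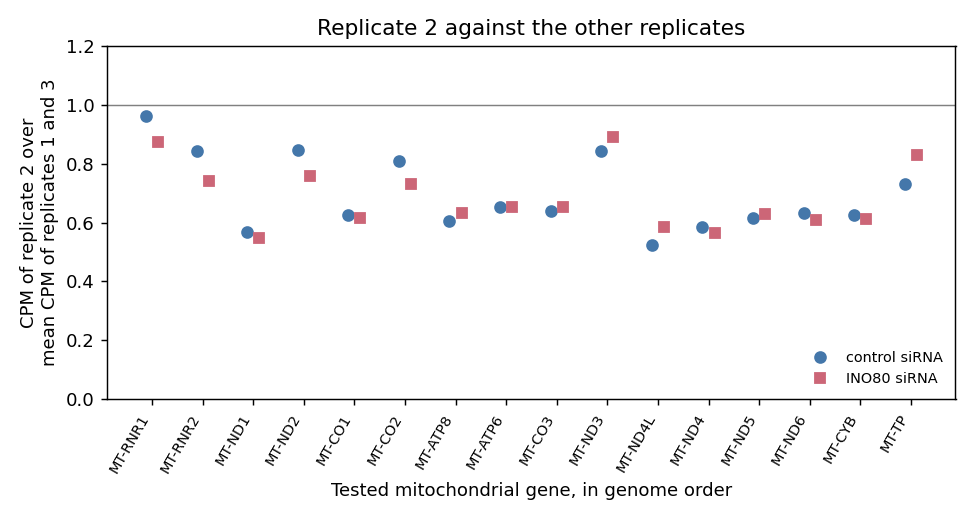
CPM of replicate 2 divided by the mean CPM of replicates 1 and 3 of the same group for the 16 tested genes, with a line at 1. All points lie below 1, from 0.525 to 0.961 in control siRNA and from 0.548 to 0.889 in INO80 siRNA, and MT-ND1, MT-ND4L and MT-ND4 lie lowest.

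The composition of the mitochondrial reads differed in replicate 2 as well. Of all mitochondrial counts, the rRNA genes took 25.5%, 30.02% and 23.9% in control siRNA replicates 1, 2 and 3 and 28.2%, 30.8% and 26.6% in INO80 siRNA replicates 1, 2 and 3. In both groups MT-RNR1, MT-RNR2, MT-ND2, MT-CO2 and MT-ND3 had their highest share of the mitochondrial counts in replicate 2. MT-ND1, MT-CO1, MT-ATP6, MT-ND4L, MT-ND4, MT-ND5, MT-ND6 and MT-CYB had their lowest share there in both groups. Between the treatments, the share within the mitochondrial counts was higher under INO80 siRNA in all 3 pairs for 3 genes, MT-RNR1, MT-RNR2 and MT-ND1. It was lower in all 3 pairs for MT-ND2, MT-CO1, MT-CO2, MT-ND3, MT-ND4, MT-CYB and MT-TP.

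Other RNAs differed between the replicates too. RNAs retained in the nucleus (MALAT1, NEAT1 and others) summed to 759, 523 and 663 CPM of the total count in control siRNA replicates 1, 2 and 3 and to 713, 628 and 728 in INO80 siRNA replicates 1, 2 and 3, lowest in replicate 2 of each group. NEAT1 was at 247, 139 and 190 CPM against 261, 175 and 222 CPM and passed with the block (log2 fold change 0.21, adjusted p = 0.000388, edgeR). MALAT1 had an adjusted p of 0.123 and SNHG14 fell by 0.30 on the log2 scale (adjusted p = 3.76e-05, edgeR with block). RNAs without a poly(A) tail, 12 rows of which 4 were tested, summed to 22.2, 37.0 and 39.4 CPM of the total count under control siRNA and 22.0, 46.9 and 41.6 under INO80 siRNA, lowest in replicate 1. Of the 3 with the smallest p, RN7SL1 passed with the block (log2 fold change 0.27, adjusted p = 0.0373, edgeR), and TERC and RN7SK had adjusted p of 0.290 and 0.415. The part of RNA selection, RNA quality or depth in the mitochondrial differences was not tested.

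Copies of mitochondrial genes on nuclear chromosomes can share reads with the genes themselves. Of 188 rows recognised as copies by their names, 159 had no count in any library, and 2 of the remaining 29 held 98.9% of the counts on these rows. Copies listed under other names were not among the 188. These are MTATP6P1, a copy of MT-ATP6, and MTND2P28, a copy of MT-ND2, both within a long mitochondrial insertion on chromosome 1. MTATP6P1 (chr1:633696-634376 in hg38, plus strand) had 4731, 3640 and 4813 counts in control siRNA replicates 1 to 3 and 6769, 4488 and 7087 in INO80 siRNA replicates 1 to 3. That is between 19.4 and 22.6 counts for every 100 on MT-ATP6, with replicate 2 low in both groups as for the gene itself. Like the gene, it passed with the block (log2 fold change 0.17, SE 0.0376, adjusted p = 0.00106, edgeR) and not without it (adjusted p = 0.743).

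Gene and copy differ at 10 of 681 bases. With the base of the mitochondrial gene first and positions counted from 1 at its start, the differences are G19A, C129T, A151C, A175G, A192G, A334G, C417T, C534A, C549T and C642T. The stretches from 121 to 200 and from 304 to 364 of both are shown because they hold 4 of these differences and 1 of them, in capitals.
MT-ATP6, 121 to 200: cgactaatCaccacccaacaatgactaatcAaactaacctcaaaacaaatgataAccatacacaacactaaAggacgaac
MTATP6P1, 121 to 200: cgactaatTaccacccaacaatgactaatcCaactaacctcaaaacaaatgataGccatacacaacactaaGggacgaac
MT-ATP6, 304 to 364: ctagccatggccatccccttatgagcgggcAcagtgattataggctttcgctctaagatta
MTATP6P1, 304 to 364: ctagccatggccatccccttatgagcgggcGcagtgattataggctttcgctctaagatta

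MTND2P28 had 1115, 1061 and 1135 counts under control siRNA and 1390, 1309 and 1666 under INO80 siRNA, between 5.29 and 5.74 for every 100 on MT-ND2, from which it differs at 17 of 1042 bases. It did not pass (adjusted p = 0.135, edgeR with block), nor did MT-ND2. Identity alone does not order the counts. The copy of MT-CO1 in the same insertion is listed under the name of a microRNA, so that it is not among the 188 rows, and it was chosen after its counts were seen. It is 98.7% identical to its gene and had between 111 and 310 counts per library, or between 0.2 and 0.282 for every 100 on MT-CO1. MTATP8P1, at 97.6% identity, had 0 counts in all 6 libraries. The next of the 188 rows by count, MTRNR2L12, MTND4P12 and MTND1P23, had between 2 and 27 counts per library. Adding the 188 rows to the mitochondrial genes gave a difference between the group means of 0.268 percentage points in place of 0.265.

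The mitochondrial transcripts depend on proteins encoded in the nucleus, and 7 lists of their genes were compared in the same fits. With the block, 20 genes for ribosomal proteins of the mitochondrion fell and 6 rose, 7 for aminoacyl-tRNA synthetases fell and 1 rose, 4 for mitochondrial transcription and maintenance rose and 1 fell, and 9 for RNA processing rose and 2 fell. Whether these directions differ from those of other genes was not tested. Without the block 9 genes of these lists passed, all lower, against 1.49% of all tested genes in that direction. The count depended on single libraries, as did that over all tested genes. Over these lists and those of nuclear-retained RNA and RNA without a poly(A) tail, where it was also 9, it was 0 without control siRNA replicate 3 or INO80 siRNA replicate 3 and 2 without control siRNA replicate 2 or INO80 siRNA replicate 2. Of all tested genes, 0.115% and 0.147% passed without control siRNA replicate 3 or INO80 siRNA replicate 3. The share was 0.159% and 0.30% without control siRNA replicate 2 or INO80 siRNA replicate 2, against 1.75% with all libraries. With the block 24.8% of all tested genes passed, 11.4% higher and 13.4% lower, against which the counts below are read. Over the 7 lists and the lists of nuclear-retained RNA and of RNA without a poly(A) tail together, 88 genes passed with the block in edgeR, 29 in DESeq2 with the block and 0 in limma on log2(FPKM + 0.1) with the block. Of all tested genes, 13.9% passed in that DESeq2 fit and 0 in that limma fit.

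**Figure D5:**
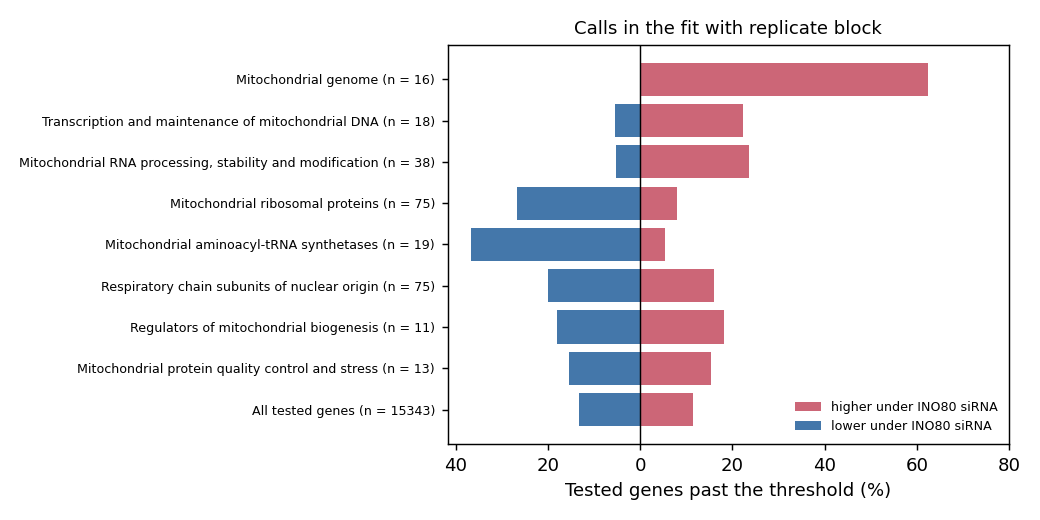
Percent of tested genes past the threshold in the fit with replicate block, higher to the right and lower to the left, for the mitochondrial genome, the 7 nuclear lists and all tested genes (n in the labels). The mitochondrial genome has 10 of 16 genes to the right and 0 to the left, and the bars for all tested genes are at 11.4% and 13.4%.

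Among 18 genes for transcription and maintenance of mitochondrial DNA, 4 rose and 1 fell with the block, and 0 passed without it. TFAM, which packages mitochondrial DNA and activates its promoters, had a mean of 118 CPM in the control siRNA libraries and 132 CPM in the INO80 siRNA libraries (log2 fold change 0.15, adjusted p = 0.00524, edgeR with block). MTERF, the termination factor that binds downstream of the rRNA genes, was at 14.1 and 17.2 CPM (0.29 on the log2 scale, adjusted p = 0.0129, edgeR with block). PRIMPOL, a primase-polymerase, had a log2 fold change of 0.25 (adjusted p = 0.0225, edgeR with block). The median of the list was 0.08 on the log2 scale, against 0.01 for all tested genes.

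Among 38 genes for processing, stability and modification of mitochondrial RNA, 9 rose and 2 fell with the block, 28.9% in all, and 0 passed without it. KIAA0391, known as PRORP, the nuclease subunit of mitochondrial RNase P, is listed under 2 identifiers and was named because earlier results of these data pointed to it. Under ENSG00000100890 it had 36, 57 and 56 counts in control siRNA replicates 1 to 3 and 93, 118 and 109 in INO80 siRNA replicates 1 to 3, with no overlap. Its log2 fold change was 0.82 with the block (adjusted p = 0.000876, edgeR) and the adjusted p without the block was 0.0579. Under ENSG00000258790, which overlaps PSMA6, it had 10, 7 and 19 counts against 37, 41 and 39, and the log2 fold change with the block was 1.42 (adjusted p = 0.00276, edgeR). Reads could be shared between these overlapping entries, so both values are uncertain. TRMT5, which methylates tRNA beside the anticodon, was at 25.7 and 32.0 CPM (0.32 on the log2 scale, adjusted p = 0.000551, edgeR with block).

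Of 75 tested genes for mitochondrial ribosomal proteins, 6 rose and 20 fell with the block, 34.7% in all, while both rRNAs of the same ribosome rose. Without the block 4 fell and 0 rose. MRPL51 fell from 106 to 70.2 CPM (log2 fold change -0.60, adjusted p = 0.0063, edgeR without block). MRPL35 fell by 0.58 and MRPS27 by 0.56 on the log2 scale (adjusted p = 0.0229 and 0.0236, edgeR without block), and MRPS10 was the other (log2 fold change -0.43, adjusted p = 0.0471, edgeR without block). The median of the list was -0.03 on the log2 scale, against 0.01 for all tested genes.

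Of 19 aminoacyl-tRNA synthetases, which charge the mitochondrial tRNAs, 1 rose and 7 fell with the block, and 2 fell without it. WARS2, for tryptophan, was at 35.3 and 21.8 CPM (log2 fold change -0.70, adjusted p = 0.0127, edgeR without block). LARS2, for leucine, passed with the block only (-0.32 on the log2 scale, adjusted p = 0.000896, edgeR with block). The tRNAs for tryptophan and leucine had 0 counts in every library.

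Of 75 tested genes for respiratory chain subunits of nuclear origin, the partners of the mitochondrially encoded subunits, 12 rose and 15 fell with the block, and the median was -0.01 on the log2 scale. Without the block 3 fell. Of the subunits of complex I, NDUFA12 fell by 0.50 and NDUFA6 by 0.29 on the log2 scale (adjusted p = 0.0147 and 0.0471, edgeR without block). In the same complex the mitochondrially encoded MT-ND1, MT-ND4, MT-ND5 and MT-ND6 rose with the block.

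Among 11 tested regulators of mitochondrial biogenesis, 2 rose and 2 fell with the block. PPARGC1B, a transcriptional coactivator, fell by 0.59, GABPB1, a subunit of the nuclear respiratory factor GABP, fell by 0.24, and ESRRA, an orphan nuclear receptor, rose by 0.23 on the log2 scale (adjusted p = 0.00532, 0.00798 and 0.0076, edgeR with block). Among 13 genes for mitochondrial protein quality control, 2 rose and 2 fell with the block. LONP1, a matrix protease, fell by 0.17, YME1L1, an inner membrane protease, fell by 0.10 and HSPD1, a chaperonin, rose by 0.11 on the log2 scale (adjusted p = 0.000926, 0.0498 and 0.00838, edgeR with block). In blocked edgeR fits without both libraries of replicate 1, 2 or 3, 93, 58 and 50 genes passed over the same lists as the 88. Of all tested genes, 25.4%, 17.0% and 14.6% passed in those fits.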

How the data were processed

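RNA-seq counts of 6 HK-2 libraries, 3 with control siRNA and 3 with INO80 siRNA, were analysed. The authors deposited 1 table with raw read counts per gene, which are not normalized, and FPKM, which equal the count divided by exonic length and library total within 0.01 for all 222 values of the mitochondrial genes. The submitters' processing notes name HISAT2 2.0.1, HTSeq and hg19, whereas the study's methods name ELAND and hg38, and the coordinates in the table are those of GRCh37. Polyadenylated RNA was selected and a directional kit was used; the strand setting of the counting is not given in the sources used here.

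Counts were compared in R 4.3.3 with edgeR 4.0.16 (quasi-likelihood test, filterByExpr, TMM), with the treatment alone as the model, with Benjamini-Hochberg adjustment of p over the 15343 tested genes. Deviations from the group means, across genes, correlated at 0.639, 0.446 and 0.427 between libraries with the same replicate number and at 0.165 or less between others, so the numbers were taken to pair the libraries, and fits with a replicate block are given where they change a call. The correlation across genes is a description, since genes are not independent replicates. Alternatives were other scalings, no filter, DESeq2 1.42.0, limma 3.58.1 on log2(FPKM + 0.1) and log2(FPKM + 1), and each library left out in turn. Blocked fits with DESeq2, limma or other scalings and fits without a pair were added after seeing the data. The edgeR and DESeq2 steps were tested on simulated data, and the limma step was not. Totals of 16829273 to 23784599 counts per library set the precision, and intervals are Wilson 95% intervals.

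The members and lists were chosen with earlier results of these data known. The genes named were INO80, every coding and rRNA gene, tested tRNA genes and the untested one with the highest count, the 5 rows with the most counts among nuclear copies recognised by name, the 3 genes of each nuclear list with the smallest p, and KIAA0391. MT-TF, MRPS10, MTATP8P1 and the copy of MT-CO1 were added after their values were seen. Sequences were read from GENCODE v44 on hg38 with Biopython 1.88, by gene identifier. Results for some genes are not reported here. Sequence reads were not analysed here.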

Additional observations from a re-analysis of the deposited data

How the results depend on the processing

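The number of mitochondrial genes past the threshold was 0 in the unblocked fits with edgeR, DESeq2 or limma, except for 2 without the filter on low counts. With the replicate block it was 10, also when scaled to nuclear genes, by the median ratio or in DESeq2, and 12 without scaling. Without both libraries of replicate 1, 2 or 3 it was 14, 8 and 4 with the block and 0 without it. In those blocked fits 25.4%, 17.0% and 14.6% of all tested genes passed. INO80 had a log2 fold change of -1.91 with the block in edgeR, whereas limma on log2(FPKM + 0.1) with the block called 0 genes and so missed INO80. For the nuclear lists, those of nuclear-retained RNA and RNA without a poly(A) tail included, the number was 9, against 15 without the filter, 15 in DESeq2, 0 and 4 in limma with pseudocounts of 0.1 and 1, and 0 to 7 with each library left out. With each library left out, between 0.115% and 0.932% of all tested genes passed. With the block the number for the lists was 88, 89 when scaled to nuclear genes, 89 by the median ratio, 86 without scaling, 29 in DESeq2 and 0 in limma, and 93, 58 and 50 without replicate 1, 2 or 3. Without the block it was 12, 0 and 0 without both libraries of replicate 1, 2 or 3. In those fits 3.37%, 0.013% and 0.013% of all tested genes passed.

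With each library left out in turn and no block, the log2 fold change changed sign for 14 of the 16 tested genes. It ranged from -0.042 to 0.42 for MT-ND1, -0.010 to 0.21 for MT-ND2, -0.065 to 0.33 for MT-CO1, -0.013 to 0.22 for MT-CO2, -0.14 to 0.26 for MT-ATP8, -0.053 to 0.30 for MT-ATP6 and -0.026 to 0.34 for MT-CO3. It ranged from -0.043 to 0.14 for MT-ND3, -0.23 to 0.27 for MT-ND4L, -0.068 to 0.37 for MT-ND4, -0.082 to 0.31 for MT-ND5, -0.032 to 0.36 for MT-ND6, -0.089 to 0.30 for MT-CYB and -0.18 to 0.11 for MT-TP. MT-RNR1 and MT-RNR2 kept their sign. Leaving out 1 library breaks a pair, so these ranges do not bear on the differences within pairs. Without both libraries of replicate 1, MT-TP was at 0.035 with the block and 0.034 without. Without those of replicate 2, MT-ND4L was at -0.0061 and -0.015. Without those of replicate 3, MT-ATP8 was at -0.013 and -0.041, MT-ND3 at -0.0020 and -0.011, and MT-ND4L at -0.0078 and -0.050. The cause was not tested. A few counts per library limit MT-TC and MT-TF, and a count of 0 limits the other tRNAs.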
